A study of Mus musculus with 25 samples.

Results

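Annexins and the S100 proteins that bind them were followed through mouse livers made preneoplastic or tumour-bearing with a mutant PIK3CA gene. The 10 genes were picked by name from the authors' tables of array probes: Anxa1, Anxa2, Anxa3, Anxa4, Anxa5, Anxa6, Anxa7, Anxa11, S100a10 and S100a11. They were chosen with earlier tumour results of these data known, so their tumour values are given below as a description without a test. By gene symbol 9 of the 10 were found. S100a11 carries no symbol in the tables and was found through a RefSeq accession, NM_016740. Its probes also list predicted transcripts with no entry in the gene table used here, so signal from a near-identical copy could not be told apart. Of the 10 genes, 8 had a probe above background on at least 4 arrays and were among 11643 genes tested. Anxa1 and Anxa7 were not well above background on any of the 25 arrays, so for these no level is given.

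All mice were of the strain C57BL/6J x 129Sv, and all had been injected, either with PIK3CA carrying the H1047R or the E545K change or with an empty vector. PIK3CA encodes the catalytic subunit of phosphoinositide 3-kinase. Livers of empty-vector mice aged 3 months (4 arrays) or 6 months (5 arrays) served as controls. Livers labelled preneoplastic came from mice aged 3 months given H1047R (4 arrays) or E545K (5 arrays), and from a mouse aged 6 months given H1047R (1 array). Tumours came from mice aged 5 months given E545K (5 arrays) and from a mouse aged 12 months given H1047R (1 array). The labels do not state the promoter of the vector, the share of liver cells reached, or that each array was a separate animal, so p-values here cover the spread between samples, which may be technical. No control of 5 months was used here, and therefore the tumours are set against both control ages.

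Annexins bind acidic phospholipids of membranes when calcium rises and can bridge membranes to each other or to actin. S100 proteins are small calcium-binding dimers, and some of them clamp the N-terminus of an annexin to form a larger complex. The classical pairs are Anxa2 with S100a10, which recruits plasminogen and its activator at the cell surface, and Anxa1 with S100a11, which also binds Anxa2 and Anxa6. Hepatocytes of normal liver are known for little Anxa1 and Anxa2, whereas Anxa5 and Anxa6 are broadly expressed in the liver.

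Arrays had 14536 to 18391 detected probes. Along the leading principal component (48.8% of variance) tumours of E545K mice scored 38.6 to 78.8 and that of H1047R 78.5, whereas all other arrays scored -44.1 to 8.51. Hepatocyte markers were high on every array, with a mean over 7 genes of 11.80 to 12.86 on the log2 scale. Skeletal muscle markers stood at 5.28, 7.28, 7.59 and 10.84 in 3-month controls 1 to 4 and reached 7.34 in 6-month controls, against 4.47 to 4.63 in the tumours. In H1047R livers of 3 months they began at 4.55, and the highest of these arrays lay within the range of the 3-month controls. Their part in the results was not tested. Earlier results of these data had singled out 3-month controls 1 and 2 on other genes, and counts are also given below without these controls where that moved them. The deposited table named for the E545K tumours against 3-month controls followed the 6-month controls in its values. Across all probes its differences correlated at 0.99983 with tumours minus 6-month controls and at 0.886 with tumours minus 3-month controls. In the same authors' deposited table the gene S100a11 stood at 4.15, Anxa2 at 3.20, Anxa5 at 2.48 and S100a10 at 0.71 on the log2 scale.

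Values below are log2 normalized signals of 1 probe a gene, and differences are on the same scale. A probe's level says nothing of another probe's level, so only differences within a gene are compared. The E545K tumours had higher mean signals than both control groups for all 8 measured genes, with a wide range between them. S100a11, Anxa5 and Anxa2 differed most, Anxa3, Anxa4 and Anxa6 by an intermediate amount, and S100a10 and Anxa11 least. The median difference of the 8 genes was 1.29 against the 3-month controls and 1.27 against the 6-month controls, beside medians over all genes of -0.03 and -0.02. In 6 of the 8 genes every tumour lay above every 3-month control, and in 6 of 8 every tumour lay above every 6-month control. Over all genes tested 14.4% and 8.26% had tumours wholly above these controls. Against E545K livers of 3 months the median was 1.37 and tumours lay wholly above in 5 of 8 genes, where 11.9% of all genes did. The genes were chosen on these contrasts, so nothing is read from these shares. In bulk tissue, more cells of a type and more RNA per cell cannot be told apart.

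**Figure D1:**
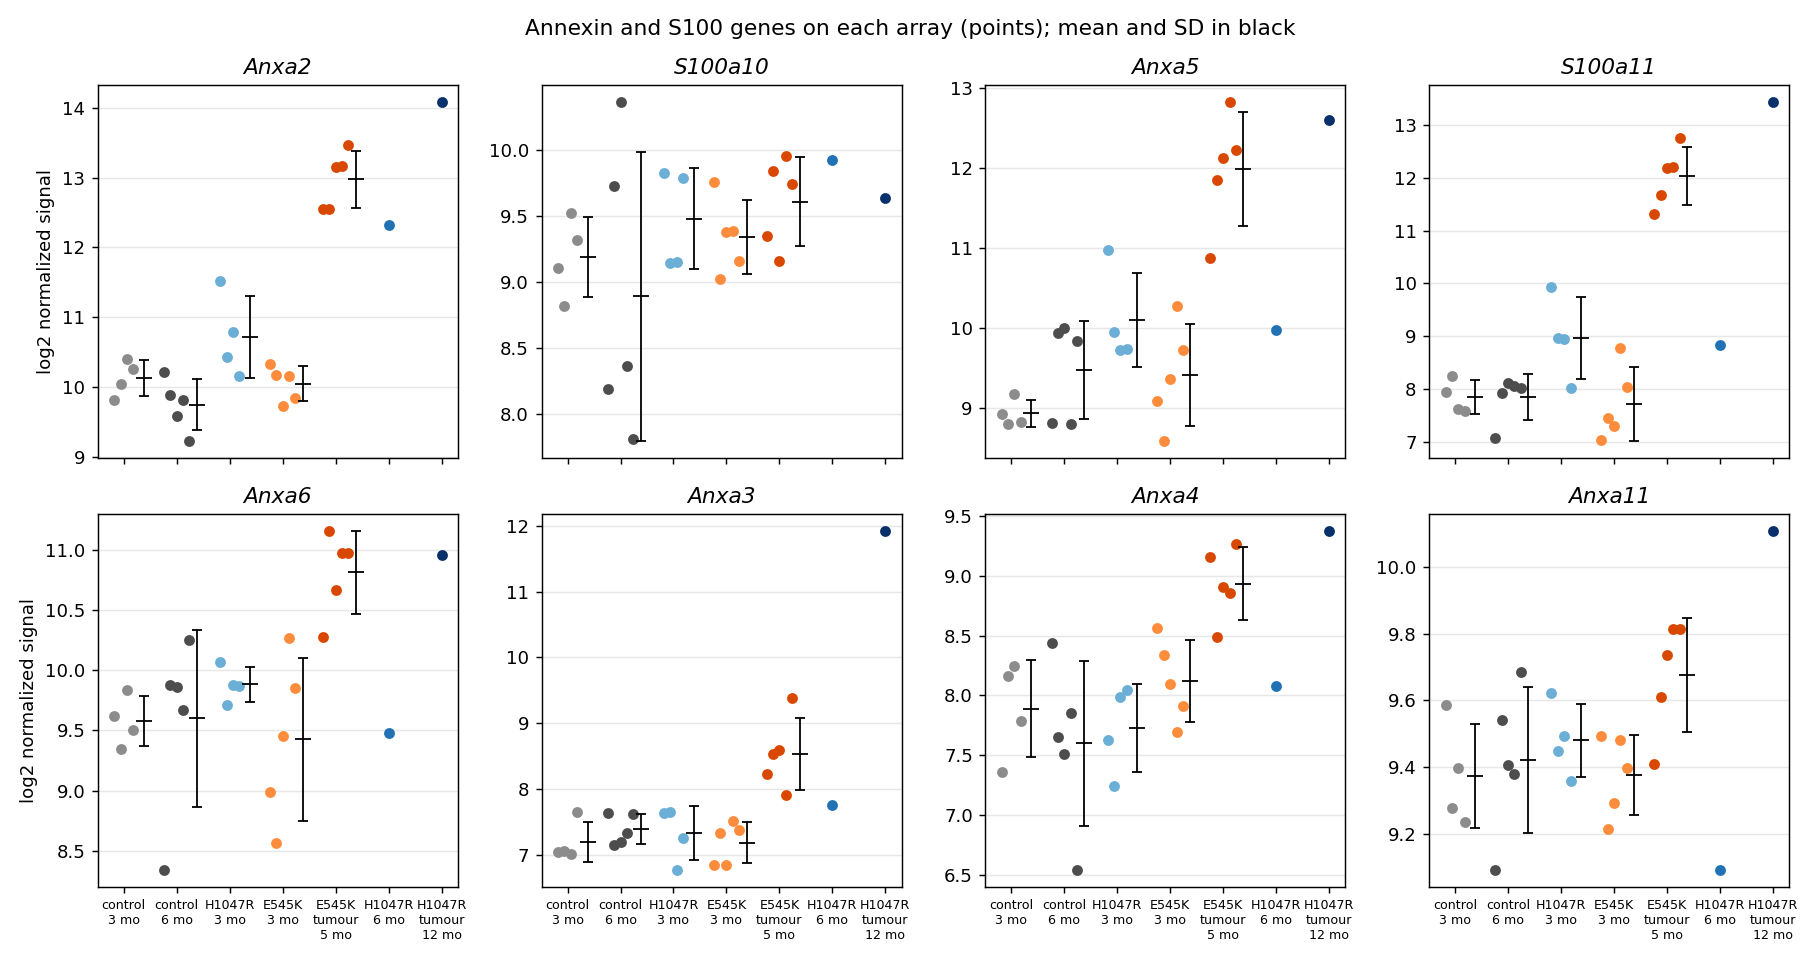
Log2 normalized signal (vertical axis) of the 8 measured genes in the 7 groups (horizontal axis); each point is an array, and black bars give mean and SD of groups with several arrays. The tumour arrays lie above all control arrays for S100a11, Anxa5, Anxa2, Anxa3, Anxa4 and Anxa6, and overlap them for S100a10 and Anxa11.

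Promoter windows from RefSeq (build GRCm38.p6, 250 bases before to 50 after a start position) were at hand for 7 of the 10 genes. For Anxa11 this position lies inside the gene, past its outermost start. The windows of the 3 genes that differed most and of Anxa11, which differed least from both control groups, are printed so that they can be compared. Capitals mark AP-1 motifs, TGANTCA, and GC boxes, GGGCGG or its reverse complement, which do not overlap here. The windows are Anxa2 at chr9:69453433-69453732 on the plus strand, S100a11 at chr3:93520246-93520545 on the plus strand, Anxa5 at chr3:36475838-36476137 on the minus strand and Anxa11 at chr14:25841905-25842204 on the plus strand.
Anxa2: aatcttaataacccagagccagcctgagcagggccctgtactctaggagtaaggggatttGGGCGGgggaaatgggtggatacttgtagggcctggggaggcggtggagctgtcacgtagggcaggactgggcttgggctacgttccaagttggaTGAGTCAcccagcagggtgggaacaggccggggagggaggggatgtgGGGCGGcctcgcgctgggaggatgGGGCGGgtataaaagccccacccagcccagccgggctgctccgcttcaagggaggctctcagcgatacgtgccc
S100a11: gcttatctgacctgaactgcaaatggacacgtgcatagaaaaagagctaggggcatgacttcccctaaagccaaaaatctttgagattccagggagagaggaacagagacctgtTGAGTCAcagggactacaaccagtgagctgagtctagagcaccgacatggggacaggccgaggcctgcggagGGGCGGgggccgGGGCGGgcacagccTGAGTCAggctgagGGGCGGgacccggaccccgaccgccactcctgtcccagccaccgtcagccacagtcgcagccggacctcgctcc
Anxa5: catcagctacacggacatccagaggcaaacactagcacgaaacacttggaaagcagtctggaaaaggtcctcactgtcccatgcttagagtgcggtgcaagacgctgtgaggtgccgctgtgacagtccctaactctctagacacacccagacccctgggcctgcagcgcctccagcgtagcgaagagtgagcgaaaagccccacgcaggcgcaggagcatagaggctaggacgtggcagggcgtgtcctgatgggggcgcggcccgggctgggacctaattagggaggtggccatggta
Anxa11: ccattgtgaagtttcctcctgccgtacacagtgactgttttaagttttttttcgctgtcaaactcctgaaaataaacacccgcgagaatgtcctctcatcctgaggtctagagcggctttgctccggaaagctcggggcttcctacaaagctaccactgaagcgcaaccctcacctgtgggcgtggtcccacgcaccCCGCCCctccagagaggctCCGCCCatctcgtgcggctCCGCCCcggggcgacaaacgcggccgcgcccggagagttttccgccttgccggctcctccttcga
The Anxa2 window held 1 AP-1 motif, 95 bases before the start, and 3 GC boxes. The S100a11 window held 2 AP-1 motifs, 136 and 38 bases before the start, and 3 GC boxes. The Anxa5 window held neither motif, and the Anxa11 window held 3 GC boxes and no AP-1 motif. On either strand an AP-1 motif was present in 7.81% and a GC box in 35.7% of 32851 promoter windows of the same length. A FOXO motif, GTAAACA, present in 3.65% of all windows on either strand, was in none of the 4 windows. These motifs were chosen after the values were seen, and a match in letters is a description of the window.

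Anxa2, the annexin that carries S100a10 to the plasma membrane, had signals of 9.82, 10.05, 10.41 and 10.25 in the 4 controls of 3 months. The 5 controls of 6 months gave 10.21, 9.89, 9.58, 9.82 and 9.23. The E545K tumours gave 12.55, 12.54, 13.15, 13.16 and 13.47, so every tumour lay well above every control. The mean was 12.98 ± 0.41 (SD, n = 5) in tumours against 10.13 ± 0.26 (n = 4) in controls of 3 months. This is a difference of 2.84 with an SE of 0.22, or 7.18-fold. Against controls of 6 months it was 3.23 with an SE of 0.23, and against E545K livers of 3 months 2.93 with an SE of 0.20.

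S100a10, the small partner of Anxa2, had a smaller difference in these tumours. Its signals were 9.10, 8.82, 9.52 and 9.32 in controls of 3 months and 9.35, 9.84, 9.16, 9.95 and 9.74 in the tumours, so the groups overlap. The difference was 0.42 with an SE of 0.20. The controls of 6 months spread widely, from 7.82 to 10.36 (SD 1.09), and against them the difference was 0.71 with an SE of 0.44. Against E545K livers of 3 months it was 0.27 with an SE of 0.19. Both of these groups also overlap the tumours.

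S100a11, a dimer that binds Anxa1 and also Anxa2 and Anxa6, had the widest difference of the 8 genes in each tumour comparison. Controls of 3 months gave 7.95, 8.25, 7.62 and 7.58, and controls of 6 months 7.08, 7.93, 8.13, 8.07 and 8.02. The tumours gave 11.32, 11.68, 12.18, 12.20 and 12.76, all far above either control age. The mean was 7.85 ± 0.32 (n = 4) in controls of 3 months and 12.03 ± 0.55 (n = 5) in tumours, a difference of 4.17 with an SE of 0.27, or 18.1-fold. Against controls of 6 months it was 4.18 with an SE of 0.28. A second, dimmer S100a11 probe was not well above background on any control and was detected on 5 of 5 tumours. Measured against the lowest detected signal it was at least 2.72-fold higher in tumours than in controls of 3 months and at least 2.61-fold higher than in controls of 6 months. Both probes were higher in tumours, and the second gives only these lower bounds on the size. Anxa1, the classical partner of S100a11, was not well above background in controls or tumours.

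**Figure D2:**
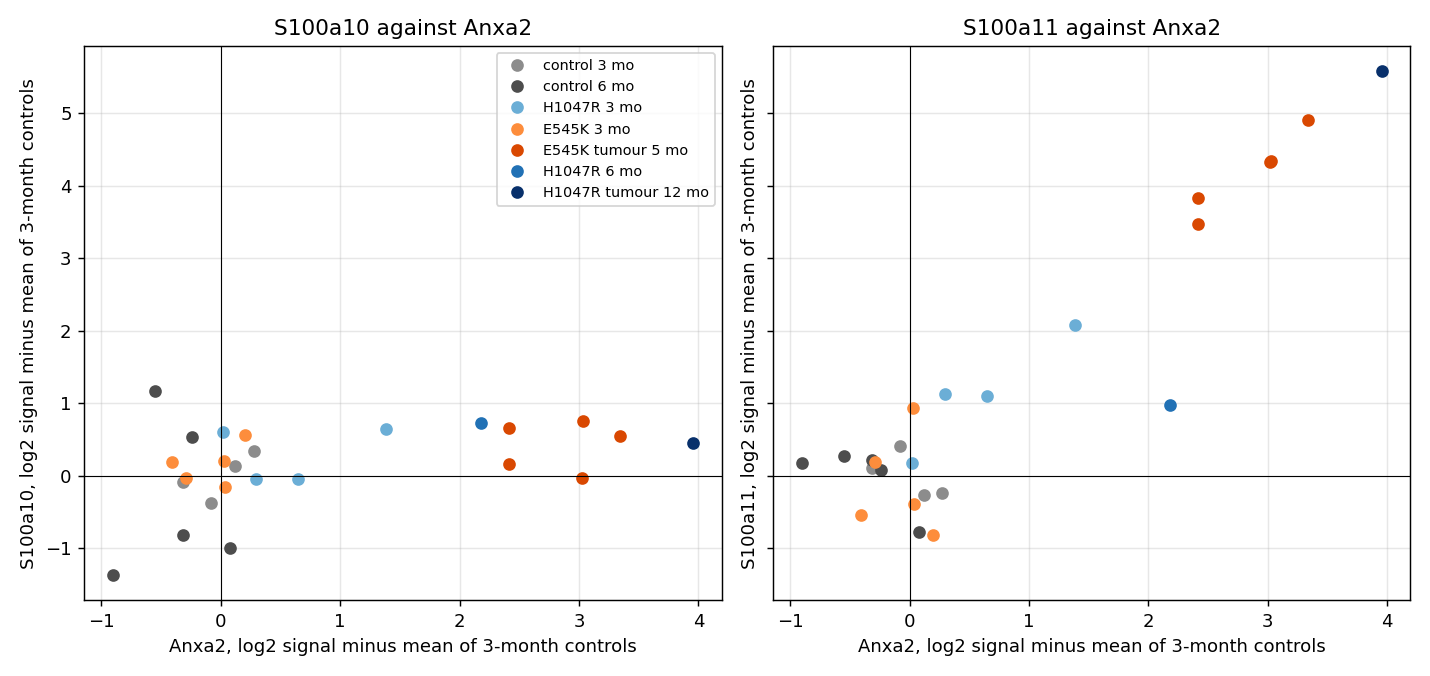
Each point is an array; both axes give log2 signal minus the mean of the 3-month controls, for Anxa2 (horizontal) and for S100a10 (left) or S100a11 (right). Tumours of E545K mice sit 2.41 to 3.34 up for Anxa2 and 3.47 to 4.90 up for S100a11, but between -0.03 and 0.76 for S100a10.

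Anxa5, which binds exposed phosphatidylserine and forms flat lattices at damaged membranes, had signals of 8.93, 8.80, 9.17 and 8.83 in controls of 3 months. Tumours gave 10.88, 11.85, 12.13, 12.83 and 12.23, with replicate 1 the lowest. The difference was 3.05 with an SE of 0.31, or 8.29-fold, and 3.33 without tumour replicate 1. Controls of 6 months lay higher and in a wider range, with 2 arrays at 8.82 or less and 3 at 9.84 or more, and against them the difference was 2.51 with an SE of 0.37. Tumours and controls of either age did not overlap.

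Anxa6, an annexin with a duplicated core that tethers endosomes and caveolar membranes to actin, had signals of 9.34 to 9.84 in controls of 3 months and of 10.28 to 11.16 in tumours. The difference was 1.24 with an SE of 0.19. Controls of 6 months reached from 8.34 to 10.25, and the lowest tumour (10.28) lay barely above the highest of these controls (10.25). Anxa4, an annexin of secretory and bile-duct epithelium, had signals of 7.36 to 8.25 in controls of 3 months and of 8.49 to 9.27 in tumours. Its difference was 1.05 with an SE of 0.22 against controls of 3 months and 0.81 with an SE of 0.20 against E545K livers of 3 months, whose range of 7.69 to 8.56 overlaps that of the tumours. A second Anxa4 probe gave 1.49 and 1.32 in these comparisons.

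Anxa3, an annexin found in neutrophils and in several epithelial tumours, had signals of 7.04, 7.06, 7.01 and 7.65 in controls of 3 months. Tumours gave 8.23, 8.53, 8.59, 7.91 and 9.38. The difference was 1.34 with an SE of 0.27, and a second probe gave 0.93. Anxa11, an annexin with a long N-terminus that tethers RNA granules to lysosomes, had signals of 9.24 to 9.58 in controls of 3 months and of 9.41 to 9.81 in tumours. Its difference of 0.30 had an SE of 0.14, and the groups overlap.

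**Figure D3:**
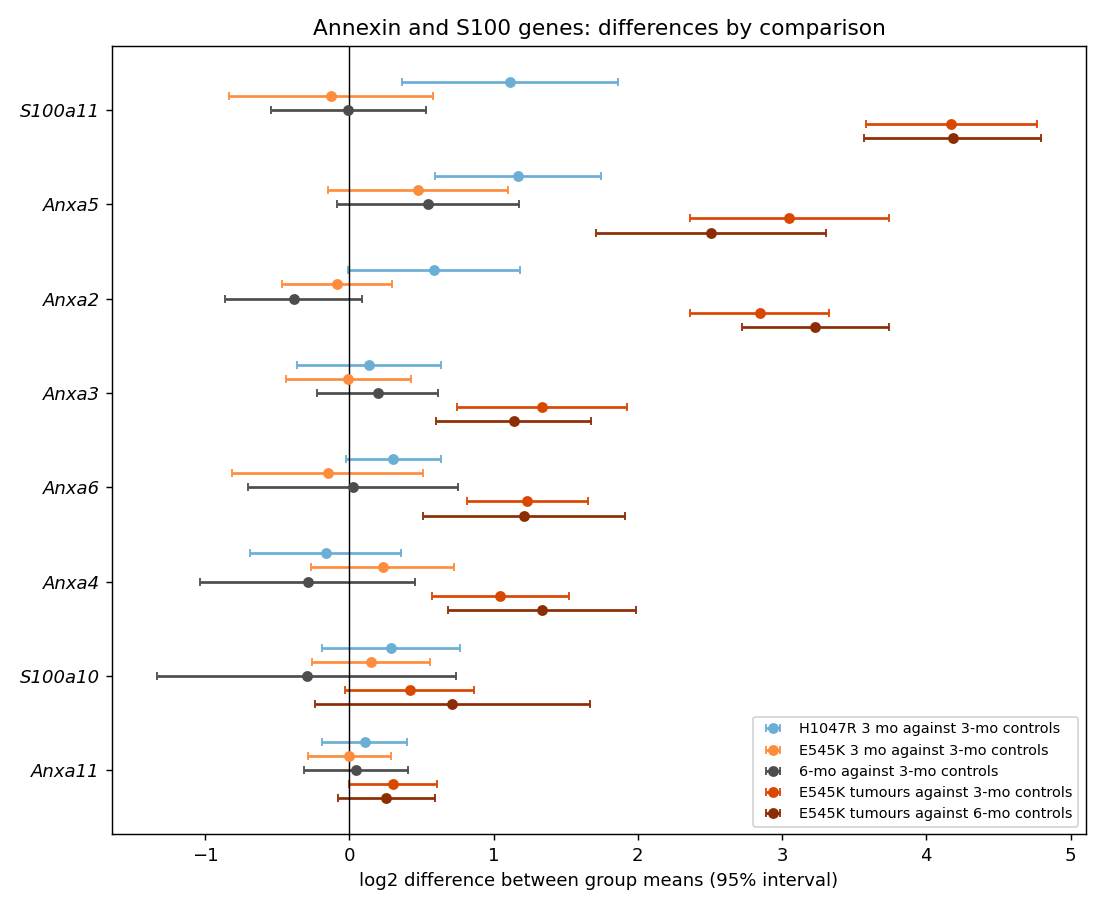
Log2 difference between group means (horizontal axis, points) with 95% interval (bars) for each gene (vertical axis) in 5 comparisons, coloured by comparison. Bars of the tumour comparisons are a description and no test, since the genes were chosen with tumour results known. S100a11, Anxa5 and Anxa2 stand at 2.51 or more in both tumour comparisons, whereas S100a10 and Anxa11 stand at 0.71 or less; of the 3 plotted comparisons without tumours, intervals leave 0 for Anxa5 and S100a11 in H1047R livers against controls.

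In the comparisons without tumours none of the 8 measured genes passed the test. The question here was whether either PIK3CA mutant changed these genes in preneoplastic liver. In limma fits over all genes, adjusted by Benjamini-Hochberg, 0 of the 8 genes were called in H1047R livers of 3 months against controls, where 0% of all genes were called. At an unadjusted p under 0.05 stood 2 of the 8 genes and 816 of all 11643. For E545K against controls 0 of 8 were called, beside 0.00859% of all genes (1 gene), and 0 of the 8 and 535 of all genes stood under an unadjusted 0.05. Between the mutants 0 of 8 were called, beside 0% of all genes, and 2 of the 8 and 714 of all genes stood under an unadjusted 0.05. Between the control ages 0 of 8 were called, beside 0.0172% of all genes (2 genes), and 0 of the 8 and 1241 of all genes stood under an unadjusted 0.05.

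Anxa5 had the smallest p of the 8 genes in H1047R livers, with signals of 10.98, 9.96, 9.73 and 9.74 against 8.80 to 9.17 in the controls. It was the 1 gene of 8 whose H1047R arrays lay wholly above the controls, as 1.85% of all genes did. Its difference was 1.17 with an SE of 0.26 (limma, adjusted p = 0.429). S100a11 had signals of 9.93, 8.97, 8.95 and 8.02, with replicate 4 among the controls, and a difference of 1.11 with an SE of 0.34 (limma, adjusted p = 0.594). Anxa2 had signals of 11.51, 10.43, 10.78 and 10.15 and a difference of 0.59 with an SE of 0.27 (limma, adjusted p = 0.709). For all 3 genes H1047R replicate 1 was the highest array. Without it the differences were 0.88 for Anxa5, 0.79 for S100a11 and 0.32 for Anxa2. The second S100a11 probe was not well above background on any of these H1047R or control arrays.

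In E545K livers of 3 months S100a11 gave 7.03, 7.46, 7.31, 8.79 and 8.03, and Anxa2 9.72 to 10.33, both overlapping the controls. The differences from controls ran from -0.15 for Anxa6 to 0.48 for Anxa5 over the 8 genes. Set directly against H1047R livers, E545K livers differed by -1.24 for S100a11 (SE 0.41, limma, adjusted p = 0.711) and by -0.67 for Anxa2 (SE 0.25, limma, adjusted p = 0.725). Neither passed, and the 95% intervals, -2.14 to -0.35 and -1.23 to -0.12, leave room for sizeable differences between the mutants. Without H1047R replicate 1 the differences were -0.92 for S100a11 and -0.41 for Anxa2. Between control ages the differences ran from -0.39 for Anxa2 to 0.55 for Anxa5.

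The late H1047R samples, 1 array each, are described without a test. The H1047R tumour of 12 months had signals of 14.08 for Anxa2, 13.44 for S100a11, 12.61 for Anxa5 and 11.92 for Anxa3. It lay above every control of 6 months for 7 of 8 genes, as it did for 24.8% of all genes, and the exception was S100a10 at 9.64. It lay above every E545K tumour for 5 of 8 genes, Anxa2, Anxa3, Anxa4, Anxa11 and S100a11, beside 19.7% of all genes. Anxa3 stood out among these, at 3.40 above the mean of the E545K tumours, whose highest array reached 9.38, and a second Anxa3 probe read 10.73 against 6.97 to 8.04.

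The preneoplastic H1047R liver of 6 months had an Anxa2 signal of 12.31, close below the E545K tumours and 2.57 above the mean of the 6-month controls. Its S100a11 signal was 8.83, which is 0.99 above that mean, whereas the lowest tumour read 11.32. Anxa2 and S100a11 therefore stood at different places between controls and tumours in this sample. It lay above every 6-month control for 3 of 8 genes, Anxa2, Anxa3 and S100a11, beside 23.3% of all genes. This liver had the lowest hepatocyte marker mean of all arrays, 11.80, and the part of that in its values was not tested.

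In order of group means, S100a11 fell from the H1047R tumour through the E545K tumours to H1047R livers of 3 months, the H1047R liver of 6 months and then both controls and E545K livers of 3 months. The last 3 groups, at 7.72 to 7.85, did not differ beyond their spread. Anxa2 had the same top pair, then the H1047R liver of 6 months, and the remaining 4 groups lay at 9.75 to 10.72 with neighbours no further apart than their SD. For S100a10 no neighbouring groups with replicates differed beyond their spread. Across the 25 arrays Pearson correlations between pairs of the 8 genes ran from 0.15 to 0.95 with a median of 0.66, given as a description since tumours and other livers form separate groups. Anxa5 with S100a11 (0.95) and Anxa2 with S100a11 (0.93) were highest, and Anxa2 with S100a10 stood at 0.40. Over the 19 arrays without tumours the range was -0.67 to 0.76 and the median 0.26, with Anxa5 and S100a11 highest.

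Genes outside the set with the most similar pattern over the 25 arrays were also named by rule for each of the leading genes. For S100a11 these included Tagln2 (r = 0.97), an actin-bundling protein, Tpm1 (0.97), a tropomyosin, Mvp (0.96), the major vault protein, and Col4a2 (0.96), a basement membrane collagen. For Anxa2 they were Smpd3, Lama5, Ttc39a, Fndc10 and Col4a1, with r from 0.94 to 0.95. For Anxa5 they were Tceal8, Rras, Capns1, Ifngr1 and Pawr, with r from 0.94 to 0.96. The split between tumours and other livers is shared by all of them.

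The gene lists below were drawn up with earlier results of these data known. Their counts and p-values are therefore no independent support for the values above. Among the relatives left outside the set, few annexins could be measured. Anxa9 rose in tumours by 0.50 against controls of 3 months (SE 0.15, limma, adjusted p = 0.0219) and by 1.06 against controls of 6 months (SE 0.17, limma, adjusted p = 0.00148). The first call is lost without control 3 or 4 of 3 months or without tumour replicate 5. In controls of 6 months Anxa9 was detected on only 2 of 5 arrays. Its mean there, 4.71, lay below the mean lowest detected signal of 4.82. This control mean comes largely from background signals, so the size of 1.06 is imprecise. Anxa13, an annexin of gut and kidney epithelium, was not well above background on any control and was detected on 4 of 5 tumours. Its tumour signals were 6.35, 4.65, 4.42, 8.45 and 4.85, so that 2 arrays lay clearly above the others, and it did not pass (limma, adjusted p = 0.152 against controls of 3 months). Anxa8 and Anxa10 were not measured above the filter.

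Of 12 other S100 genes 8 were measured, and tumours were higher than 3-month controls in 3 and lower in 1. Over all genes 19.4% were called higher and 21.1% lower in this comparison. S100a8 and S100a9, the subunits of calprotectin in neutrophils and activated macrophages, rose by 1.93 (SE 0.35, limma, adjusted p = 0.00165) and by 1.31 (SE 0.39, limma, adjusted p = 0.0204). Neither passed against the 6-month controls, with differences of 1.12 and 0.76. S100a6, calcyclin, rose by 1.53 (SE 0.37, limma, adjusted p = 0.00785) and against 6-month controls by 1.80 (SE 0.28, limma, adjusted p = 0.00120). S100a13, which takes part in release of growth factors without a signal peptide, fell by 1.25 on the log2 scale (SE 0.25, limma, adjusted p = 0.00280) and by 1.11 against 6-month controls (SE 0.26, limma, adjusted p = 0.0118). Its signals were 9.71, 9.71, 9.55 and 10.23 in the 3-month controls and 9.14, 8.96, 7.99, 8.12 and 8.54 in tumours, so these groups do not overlap. S100a1, S100a4, S100a14 and S100a16 did not pass, with differences of -0.11, -0.22, 0.12 and 0.33. S100a4 was detected on 1 of 4 of these controls and 1 of 5 tumours, so its difference is mostly one of background signals. S100a14 was detected on 2 of 4 of these controls. Against 6-month controls 1 S100 gene was called higher and 1 lower, where 11% and 9.02% of all genes were, and against E545K livers of 3 months 3 and 1, where 19.9% and 20.9% were. Without 3-month controls 1 and 2, 2 were called higher and 1 lower in the first comparison.

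Of 12 measured proteins that annexins and S100 dimers bind or act through, 4 rose and 0 fell in tumours against 3-month controls, where 19.4% of all genes rose and 21.1% fell. Against 6-month controls 2 rose and 0 fell, where 11% and 9.02% of all genes did, a share of the list near that of all genes. Against E545K livers of 3 months 4 rose and 1 fell, where 19.9% and 20.9% of all genes did. Myof, myoferlin, a calcium sensor of membrane repair, rose by 2.11 (SE 0.28, limma, adjusted p = 0.000256). Plat, tissue plasminogen activator, was not well above background on any of 4 controls and was detected on 5 of 5 tumours, at least 2.32-fold higher (limma, adjusted p = 0.000370). Pdcd6ip, a scaffold of membrane budding, rose by 0.80 (SE 0.19, limma, adjusted p = 0.00604). Plaur, the urokinase receptor, was also not well above background on any control of 3 months and was detected on 4 of 5 tumours, at least 1.17-fold higher (limma, adjusted p = 0.0456). Without the 3-month controls 1 and 2, 2 of the 12 were called.

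Calcium-binding proteins of other families rose in 5 of 8 measured genes against 3-month controls and fell in 0, where 19.4% of all genes rose and 21.1% fell. Against E545K livers of 3 months 5 of 8 rose and 0 fell, where 19.9% and 20.9% of all genes did. Capns1, the small calpain subunit, rose by 2.41 (SE 0.30, limma, adjusted p = 0.000170) and Calm2, a calmodulin gene, by 2.17 (SE 0.29, limma, adjusted p = 0.000288). Sri, sorcin, rose by 1.14 (SE 0.21, limma, adjusted p = 0.00148) and Capn2, a calpain, by 1.91 (SE 0.41, limma, adjusted p = 0.00389). Capn2 was detected on only 1 of the 4 controls of 3 months, so its control mean of 4.99 comes mostly from background signals. Against 6-month controls 2 of 8 rose, where 11% of all genes did. Of the 8, 1 rose without 6-month control 1, 4 or 5 or tumour replicate 2, 3, 4 or 5, and 4 did so without tumour replicate 1. Without the 3-month controls 1 and 2, 3 of 8 were called in the first comparison.

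Of the genes of the actin cortex and its membrane linkers 17 were measured, and 15 rose and 1 fell against 3-month controls, where 19.4% of all genes rose and 21.1% fell. Against 6-month controls 12 rose and 0 fell, where 11% and 9.02% of all genes did. Against E545K livers of 3 months 15 rose and 1 fell, where 19.9% and 20.9% did. The list's median difference was 1.28 against 3-month controls, beside -0.03 over all genes. The list was drawn up with earlier results known, so nothing is read from these shares. Tagln2, transgelin 2, rose by 3.43 (SE 0.21, limma, adjusted p = 2.64e-06), from 7.55 ± 0.38 (n = 4) to 10.98 ± 0.32 (n = 5). Tpm4, a tropomyosin, rose by 2.05 (SE 0.20, limma, adjusted p = 3.87e-05) and Arpc1b, a subunit of the actin-branching Arp2/3 complex, by 1.60 (SE 0.23, limma, adjusted p = 0.000410). Lgals3, galectin 3, rose by 2.55 (SE 0.40, limma, adjusted p = 0.000686). The list also holds the galectins Lgals1 and Lgals3 and the filament protein Vim, which are not actin cortex genes in the strict sense. Msn, also on the list, was not well above background on any 3-month control and was at least 1.155-fold higher in tumours. The gene that fell was Rdx, radixin, a membrane-actin linker named after its value was seen, by 0.80 on the log2 scale (SE 0.18, limma, adjusted p = 0.00443). Without the 3-month controls 1 and 2 the counts were 10 higher and 0 lower. In the 4 comparisons without tumours none of the measured genes of these 5 lists was called by limma.

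**Figure D4:**
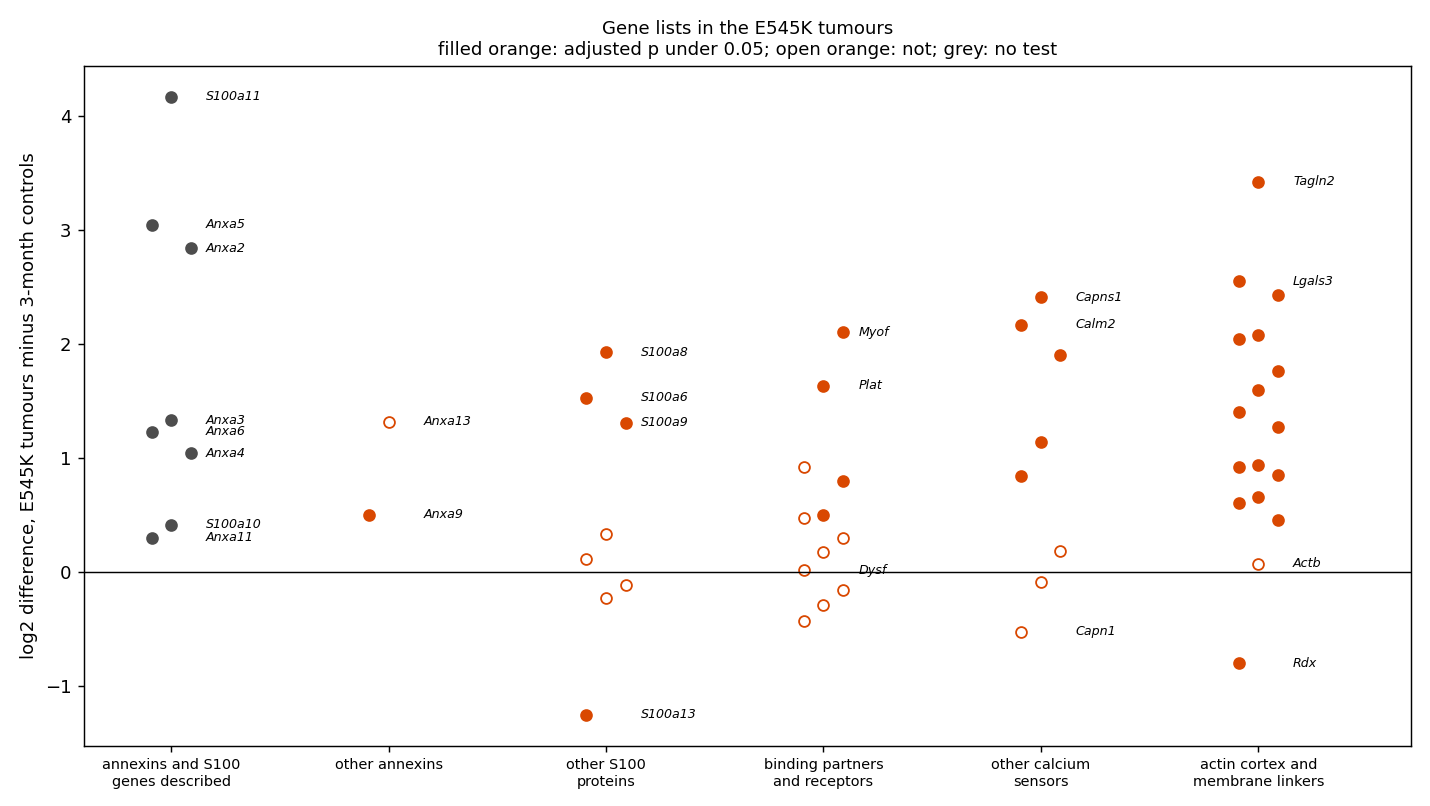
Log2 difference of E545K tumours minus 3-month controls (vertical axis) for genes of each list (horizontal axis); each point is a gene, filled orange where called by limma, open orange where not, grey for the 8 genes described without a test. S100a11 at 4.17 is followed by Tagln2 at 3.43, and S100a13 at -1.25 and Rdx at -0.80 are the called genes below 0.

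Markers of some other cell types differed between E545K tumours and controls, and those of others overlapped. Macrophage markers had a mean over 9 genes of 8.01 to 9.41 in E545K tumours, against 6.53 to 7.55 in 3-month controls and 6.10 to 7.64 in 6-month controls, and 6 of 9 were called higher against either control age, where 19.4% (3 months) and 11% (6 months) of all genes were. Clec4f, a marker of resident Kupffer cells, had the opposite sign, with a difference of -1.20 from 3-month controls (SE 0.65, limma, adjusted p = 0.165). Over 3 measured of 6 cholangiocyte markers the mean was 7.93 to 9.54 in tumours against 7.34 to 7.84 in 3-month and 6.81 to 8.05 in 6-month controls, with 2 of 3 called higher against either. These were Spp1, at 11.75 in tumours against 8.33 in 3-month controls, and Sox9, at 10.38 against 9.44. Krt7, a bile duct keratin, had the opposite sign near the lowest detected signals, at 4.71 against 4.92. Krt19 and Epcam, defining markers of bile ducts, were not well above background on any tumour array. Stellate cell and fibroblast markers overlapped, at 6.25 to 7.23 in tumours and 6.40 to 7.10 in 3-month controls over 8 genes, with 1 called higher and 2 lower. In 6-month controls they lay at 5.97 to 6.61, with 3 of 8 called higher in tumours and 0 lower, and against E545K livers of 3 months 2 were called higher and 0 lower. Endothelial markers lay at 6.21 to 7.69 in tumours and at most 7.07 in 3-month controls over 6 genes, within the tumour range, with 0 called higher and 1 lower, Stab2 (difference -1.09, SE 0.34, limma, adjusted p = 0.0234). Against 6-month controls no endothelial marker was called by limma (2 of 6, Stab2 and Clec4g, had an unadjusted p under 0.05), and against E545K livers of 3 months 0 were called higher and 2 lower. The 3 measured neutrophil markers lay at 4.60 to 5.17 in tumours, near the lowest detected signals, and Ngp was not detected on any array. The H1047R tumour had stellate cell and fibroblast markers at 8.28 and cholangiocyte markers at 10.22, above every other array. Its cholangiocyte mean rests on Spp1 (13.77) and Sox9 (12.08), with Krt7 at 4.81. The part of these cell types in the annexin and S100 values was not tested.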

How the data were processed

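RNA of mouse livers was measured on Illumina bead arrays (25 arrays, 7 groups taken from the sample titles). The deposited table holds a raw signal intensity and a detection p-value for each probe, per the file headers. The authors also deposited limma tables with log2 fold changes and a matrix of processed values, used here for a check and as an alternative. Neither scanner software nor array type is stated in the labels or headers. RNA was extracted with Trizol and RNeasy columns and amplified to biotinylated cRNA, per the labels' protocols.

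Intensities were background-corrected, quantile-normalized and log2-transformed with neqc (limma 3.58.1, R 4.3.3, offset 16). Of 45281 probes, 20349 had a detection p-value under 0.05 on 4 or more arrays. Of these, 17136 had a single gene, and the probe with the highest mean stood for each of 11643 genes, since 3955 genes had several. Gene names came from the authors' tables, with 504 probes named through an accession and 658 symbols updated. Each comparison was fitted on its 2 groups with lmFit and eBayes, p-values were adjusted by Benjamini-Hochberg over all genes, and a gene was called at an adjusted p under 0.05. The fit was tested on simulated data. The number of arrays limits the precision.

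The members, gene lists and tests were chosen with earlier results of these data known. Named were all 10 members, all measured genes of the lists of other annexins and other S100 proteins, the 4 called genes of smallest p of each other pathway list, and the 5 genes most correlated with Anxa2, Anxa5 and S100a11. Of the last, 1 gene is not reported here. Rdx was named in addition. No p-value is given for the members in tumour comparisons. A gene not well above background on any array of a group is given as a lower bound, the tumour mean against the mean over arrays of the lowest detected signal. Alternatives covered the background correction, normalization, filter, probe, samples in the fit, variance model, replicate block, single arrays, and 3-month controls 1 and 2. No 2 arrays held identical values, and the closest pair correlated at 0.990.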

Additional observations from a re-analysis of the deposited data

Results flagged for a closer look

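Each of the 8 measured genes was checked for an array far from the rest in 5 groups of 4 or 5 arrays, and 2 of 40 checks marked one. Chance marks about 1 in 20. In 3-month controls the Anxa3 signal of replicate 4, 7.65, stood apart from the next highest, 7.06. In 6-month controls the S100a11 signal of replicate 1, 7.08, stood apart from the next lowest, 7.93. Other livers without tumours read as high for Anxa3 (7.76 in the H1047R liver of 6 months) and as low for S100a11 (7.03 in an E545K liver of 3 months).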

How the results depend on the processing

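All 24 differences of the 8 genes in the 3 tumour comparisons were positive under every alternative run. Their median ran from 1.07 to 1.39 against 3-month controls, from 1.07 to 1.37 against 6-month controls and from 1.13 to 1.51 against E545K livers of 3 months. The second probe gave 1.49 and 1.32 for Anxa4 (3-month controls, E545K livers). For S100a11 it was not well above background on any control and on 4 of 5 E545K livers of 3 months, so it gives only the lower bounds printed above. Without 3-month controls 1 and 2, 19 of the pathway genes were called against 3-month controls in place of 30. The cause was not tested, and that fit has fewer arrays.

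The signs of small, uncalled differences changed as follows. Without 3-month controls 1 and 2, Anxa3 stood at -0.0016 in H1047R livers, S100a10 at -0.080 and S100a11 at 0.12 in E545K livers, and Anxa6 at -0.069 and S100a11 at 0.25 between control ages. The second probe gave 0.023 for Anxa4 between control ages. For S100a11 its values of 0.26 in E545K livers and 0.056 between control ages are differences of background signals and say nothing of the gene. S100a11 between control ages was 0.00013 with no background correction and 2.1e-05 with the authors' processed values. With single arrays left out, E545K minus 3-month controls ran from -0.044 to 0.072 for Anxa11, from -0.19 to 0.0057 for Anxa2, from -0.0900 to 0.15 for Anxa3, from -0.36 to 0.064 for Anxa6 and from -0.39 to 0.044 for S100a11. Between control ages it ran from -0.019 to 0.13 for Anxa11, from -0.14 to 0.34 for Anxa6 and from -0.10 to 0.18 for S100a11.

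Deviations of same-numbered arrays from their group means correlated at -0.31 to 0.46. Arrays with different numbers were not compared in this way, so these values cannot decide whether the numbers pair arrays. With the replicate block the medians were 0.30 (H1047R), -0.02 (E545K), -0.38 (between mutants), -0.03 (control ages), and 1.16, 1.27 and 1.37 in the tumour comparisons. The block turned Anxa11 to -0.0037 in E545K livers, and Anxa11 to -0.019 and Anxa6 to -0.14 between control ages. With it 0 of the 8 genes were called, and 25, 22 and 32 pathway genes in the tumour comparisons. Anxa1 and Anxa7 were too dim for a level.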
